A study of Mus musculus with 2 samples.

Results

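The genes described here make, store and recapture catecholamines, and were followed in ureters of mouse embryos with and without Rbpj in the ureteric mesenchyme. They are Th, Ddc, Dbh and Pnmt for synthesis, Gch1 for a cofactor of synthesis, Slc18a1 and Slc18a2 for storage in vesicles, and Slc6a2 for uptake. They were taken by name, and every array probe carrying one of the 8 names was used, which gave 11 probes of 39429 on the array and 8 of the 20495 genes tested. The names were chosen by their log2 ratios of Rbpj-cKO to control on these arrays, among them those of Dbh, Slc18a1 and Th, together with their shared role, so the ratios of these 8 genes are a description and carry no test.

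Both groups were NMRI embryos at E14.5. Rbpj-cKO embryos had the genotype Tbx18(cre/+);Rbpj(fl/fl), in which Cre is made from one Tbx18 allele, and control embryos are given as Rbpj(fl/?), with no Cre allele listed. Each of 2 arrays held the RNA of 1 Rbpj-cKO and 1 control sample. Replicate 1 held male RNA, with Rbpj-cKO in red and control in green, and replicate 2 held female RNA with the dyes exchanged. Sex and dye orientation therefore cannot be told apart. The labels do not state how many embryos gave each sample or whether samples were pools, and the spread between arrays rests on a single Rbpj-cKO and a single control sample per sex. Cre from Tbx18 acts in mesenchyme around the ureteric epithelium, and RNA came from whole dissected ureters, so other cells of the ureter are in both groups. More cells of a type and more RNA per cell cannot be told apart in such samples.

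Catecholamine synthesis begins with tyrosine hydroxylase (Th), which turns tyrosine into L-DOPA with tetrahydrobiopterin as cofactor. Aromatic amino acid decarboxylase (Ddc) then makes dopamine, dopamine beta-hydroxylase (Dbh) makes noradrenaline inside vesicles, and phenylethanolamine N-methyltransferase (Pnmt) makes adrenaline. The vesicular monoamine transporters VMAT1 (Slc18a1) and VMAT2 (Slc18a2) load the vesicles, and the noradrenaline transporter (Slc6a2) takes the transmitter back up. Sympathetic neurons and chromaffin cells of the adrenal medulla and of extra-adrenal paraganglia, all derived from the neural crest, are the textbook users of this pathway outside the brain.

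Start regions of the members that had an entry in a RefSeq promoter table (GRCm38.p6) are shown for 4 genes because each differed between Rbpj-cKO and control by a log2 ratio of 1.27 to 1.83 on replicate 1. Each runs 5′ to 3′ on the gene's strand from 250 bases before the annotated start through the first 10 bases after it. Capitals mark TGACGTCA, the palindromic cyclic AMP response element, its core TGACG, and ATTA, the core letters bound by many homeodomain proteins, on either strand.
Th (chr7:142899986-142900245, minus strand): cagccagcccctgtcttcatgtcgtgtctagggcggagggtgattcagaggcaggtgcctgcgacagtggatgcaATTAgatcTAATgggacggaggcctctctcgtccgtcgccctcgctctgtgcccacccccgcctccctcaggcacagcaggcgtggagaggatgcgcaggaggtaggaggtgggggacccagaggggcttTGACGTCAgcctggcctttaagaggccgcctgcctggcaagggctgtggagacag
Dbh (chr2:27165257-27165516, plus strand): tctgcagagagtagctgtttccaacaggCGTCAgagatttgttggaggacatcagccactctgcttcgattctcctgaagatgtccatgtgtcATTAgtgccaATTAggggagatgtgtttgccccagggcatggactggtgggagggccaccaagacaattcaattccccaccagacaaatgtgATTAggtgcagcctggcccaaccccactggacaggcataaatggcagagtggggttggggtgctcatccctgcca
Gch1 (chr14:47189404-47189663, minus strand): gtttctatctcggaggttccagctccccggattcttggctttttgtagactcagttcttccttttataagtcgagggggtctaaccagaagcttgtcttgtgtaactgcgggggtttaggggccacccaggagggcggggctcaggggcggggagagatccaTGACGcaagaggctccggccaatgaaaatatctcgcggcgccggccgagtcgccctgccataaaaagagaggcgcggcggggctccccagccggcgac
Slc18a2 (chr19:59260628-59260887, plus strand): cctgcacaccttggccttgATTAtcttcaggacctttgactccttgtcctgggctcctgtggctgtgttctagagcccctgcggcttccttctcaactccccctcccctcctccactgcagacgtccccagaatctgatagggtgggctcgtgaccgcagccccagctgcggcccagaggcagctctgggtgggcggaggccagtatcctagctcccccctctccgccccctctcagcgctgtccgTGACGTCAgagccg
The full TGACGTCA stood 45 bases before the Th start and 4 bases before the Slc18a2 start, and 1.67% of 32851 promoter windows of this length held it. The table held 6 windows for these genes, the 4 shown and 2 alternative starts of Ddc, and TGACGTCA was in 2 of the 6. TGACG, which also lies within each TGACGTCA, was in the 4 windows shown and in neither Ddc window, against 18.8% of all windows. ATTA was in 5 of the 6, Gch1 lacking it, against 55.6% of all windows. TGGGAA, the core letters of sites bound by RBPJ, was in 0 of the 6, against 22.4% of all windows. These are matches of letters in one window and say nothing about binding.

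The samples carried the markers of a ureter. Upk3a and Upk1b, uroplakin genes of the urothelium, and Tbx18, a transcription factor of the ureteric mesenchyme, were well above background on 4 of 4 spots in all 4 channels. By its brighter probe, Rbpj had less signal in Rbpj-cKO than in control on each array (log2 ratios of -1.13 and -0.63). Ddx3y and Eif2s3y, genes of the Y chromosome, gave processed signals of 123 and 218 in the female Rbpj-cKO channel, which were 8.04% and 8.89% of those in the male Rbpj-cKO channel, against 2.12 and 13.6 in the female control channel. The log2 ratios of the members are therefore given per array. Means, ranks, fits over both arrays and comparisons over the 4 channels still include the female Rbpj-cKO sample. Over all genes, replicate 1 and replicate 2 had a negative correlation of the turned log2 ratios (r = -0.352 by Pearson across genes, which are not independent replicates). The dye orientation was taken from the labels. With it, both Rbpj probes were lower in Rbpj-cKO on each array, the dimmer with log2 ratios of -0.48 and -0.37. It was not tested further, so each direction on replicate 2, and the sign of this correlation, rests on the labelled dyes. Left unturned, replicate 2 would have every member's sign reversed, and Rbpj would be higher in Rbpj-cKO on it. Of all genes, 16.1% were higher and 14.7% were lower in Rbpj-cKO on each array. With limma, 0% of genes (0 of 20495) passed an adjusted p under 0.05 and 372 had an unadjusted p under 0.05, while 2 passed with the scanner software's processed signals and 5 with an intensity trend and robust moderation.

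All of these catecholamine genes but Pnmt were higher in Rbpj-cKO than in control on both arrays (7 of 8, where 16.1% of all genes were). The 7 include Slc6a2, which on replicate 2 was well above background on 3 spots in Rbpj-cKO and 0 in control. It passed the filter on dim probes there only through the Rbpj-cKO channel, so its direction in the female pair carries no weight. The difference was larger in the male pair for each of the 7, but for Slc6a2 the arrays differed by less than the spot SD of their ratios, and the female ratio was the larger with the processed signals (0.59 and 0.86) and with median centring without loess (0.29 and 0.40). The median log2 ratio of the 8 genes was 1.28 (2.43-fold) in the male pair and 0.24 (1.18-fold) in the female pair, beside medians of 0.0012 and 0.0046 over all genes. At least a 1.5-fold excess was seen for 6 genes in the male pair, where 1.4% of all genes had one, and for 2 genes in the female pair, where 1.11% had one. Dbh and Slc18a1 reached it on both arrays, as did 0.132% of all genes. In what follows, ratios are those of Rbpj-cKO to control on the log2 scale with replicate 1 first, and levels are processed signals ± SD over the spots of a probe, 4 unless stated, which measures error within an array only.

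Dbh and Slc18a1 had the highest mean ratios. Dbh was first by the main processing, and Slc18a1 was above it with the processed signals (1.41 and 1.29), with a background offset of 16 (1.32 and 1.27) and in the authors' deposited series table (1.42 and 1.29). The Dbh probe (mm9 chr2:27038665-27038724) gave 7298 ± 183 in male Rbpj-cKO, 2039 ± 24.3 in male control, 1734 ± 44.7 in female Rbpj-cKO and 1042 ± 21.4 in female control. Within each array Rbpj-cKO was thus the higher channel, but the female Rbpj-cKO level lay below the male control level, so the groups overlapped across arrays. The log2 ratios were 1.83 and 0.70, a mean of 1.26 ± 0.80 (SD, n = 2 arrays) or 2.40-fold, and ranked 11th among the 20495 genes.

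Th, whose product is the rate-limiting enzyme of the pathway, had a similar difference in the male pair and a small one in the female pair. The signals were 1993 ± 87.2 and 663 ± 20.9 in male Rbpj-cKO and control, and 470 ± 6.97 and 397 ± 15.4 in female Rbpj-cKO and control (mm9 chr7:150078703-150078762). The male Rbpj-cKO sample stood apart, and the other 3 channels lay within 1.67-fold of each other. The log2 ratios of 1.55 and 0.23 gave a mean of 0.89 ± 0.93 (SD, n = 2), so the spread between arrays was as large as the mean. Th ranked 37th among all genes by mean ratio.

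Ddc, the decarboxylase, was measured by a pair of probes some distance apart in the gene. The brighter (mm9 chr11:11714106-11714165) gave 2091 ± 132 and 1144 ± 87.2 in the male pair, and 1118 ± 9.02 and 1013 ± 43.9 in the female pair (3 spots each). Male control and female Rbpj-cKO did not differ beyond their spot SD. Its log2 ratios were 0.87 and 0.12, a mean of 0.49 ± 0.53 (SD, n = 2). The dimmer probe (mm9 chr11:11776262-11776321) gave 0.57 and 0.34, a mean of 0.46 ± 0.16, so both probes were higher on both arrays while they differed in how unlike the arrays were.

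Pnmt, which makes adrenaline, was the exception. Its signals were close to background, with 14.52 ± 3.84 and 19.6 ± 3.22 in male Rbpj-cKO and control and, over 3 spots, 15.5 ± 0.634 and 17.7 ± 1.12 in female Rbpj-cKO and control (mm9 chr11:98248798-98248857). It was well above background on 3 of 4 spots in male Rbpj-cKO and on 4 of 4 in the other channels. The log2 ratios of -0.15 and -0.11 gave a mean of -0.13 ± 0.028 (SD, n = 2), and the spot SD of the male ratio was 0.13. Rank 19190 of 20495 placed it among the lower genes.
These 2 probes are shown because Pnmt was the 1 member not higher in Rbpj-cKO and because the Ddc probes differed in how unlike the arrays were. Both are 60 bases long with 2 forward reading frames free of stop codons.
Pnmt probe: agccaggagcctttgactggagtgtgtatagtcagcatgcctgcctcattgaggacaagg
Ddc dimmer probe: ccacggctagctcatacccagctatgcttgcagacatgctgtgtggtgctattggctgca

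Gch1, GTP cyclohydrolase 1, opens the synthesis of tetrahydrobiopterin. Its brighter probe (mm9 chr14:47775348-47775407) gave 664 ± 40.8 and 264 ± 17.0 in male Rbpj-cKO and control, and 235 ± 17.4 and 189 ± 16.3 in female Rbpj-cKO and control. Again the male Rbpj-cKO channel alone stood high. The log2 ratios were 1.27 and 0.25, a mean of 0.76 ± 0.72 (SD, n = 2). The dimmer probe (mm9 chr14:47773797-47773856) gave 1.29 and 0.43.

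Both vesicular transporter genes were higher in Rbpj-cKO on both arrays. Slc18a1 gave 475 ± 36.2 in male Rbpj-cKO, 156 ± 16.1 in male control, 154 ± 4.72 in female Rbpj-cKO and 66.4 ± 4.59 in female control (mm9 chr8:71561627-71561686). The female Rbpj-cKO level equalled the male control level within the spot SD. Its log2 ratios of 1.48 and 0.99 were the most alike of the genes that differed by over 1.5-fold in the male pair, with a mean of 1.23 ± 0.35 (SD, n = 2) and rank 12.

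Slc18a2 gave 727 ± 31.0 and 287 ± 17.8 in male Rbpj-cKO and control and 249 ± 10.8 and 182 ± 8.05 in female Rbpj-cKO and control (mm9 chr19:59370106-59370165). Its log2 ratios were 1.29 and 0.39, a mean of 0.84 ± 0.64. The other probe, which shares 13 bases with the first (mm9 chr19:59370153-59370212), gave 1.28 and 0.36. The female pair thus differed by 0.99 for Slc18a1 and by 0.36 to 0.39 for Slc18a2 on the log2 scale. In mouse and other mammals VMAT1 is known mainly from endocrine cells such as chromaffin cells, and VMAT2 from neurons as well.

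Slc6a2, the uptake transporter, was dim. It gave 36.1 ± 4.95 and 24.4 ± 5.86 in male Rbpj-cKO and control and 11.7 ± 2.78 and 6.87 ± 2.77 in female Rbpj-cKO and control (mm9 chr8:95525166-95525225). In female control it was well above background on 0 of 4 spots and in female Rbpj-cKO on 3 of 4, so the female level in control is only a bound. The log2 ratios were 0.33 and 0.23, a mean of 0.28 ± 0.071 (SD, n = 2). The offset of the background correction pulls ratios of dim probes towards 0, and by the processed signals alone the ratios were 0.59 and 0.86.

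**Figure D1:**
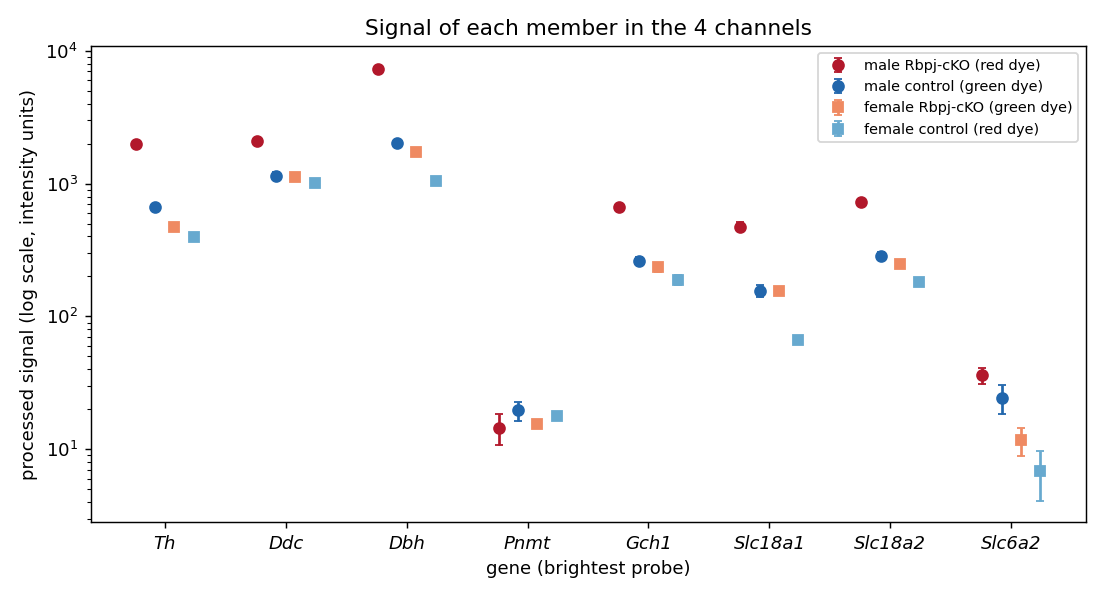
Processed signal (log scale) of the brightest probe of each gene in the 4 channels, with the SD over a probe's spots as error bars. Male Rbpj-cKO is the highest channel for 7 of 8 genes, Pnmt being the exception; heights of different genes come from different probes and are not comparable.

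**Figure D2:**
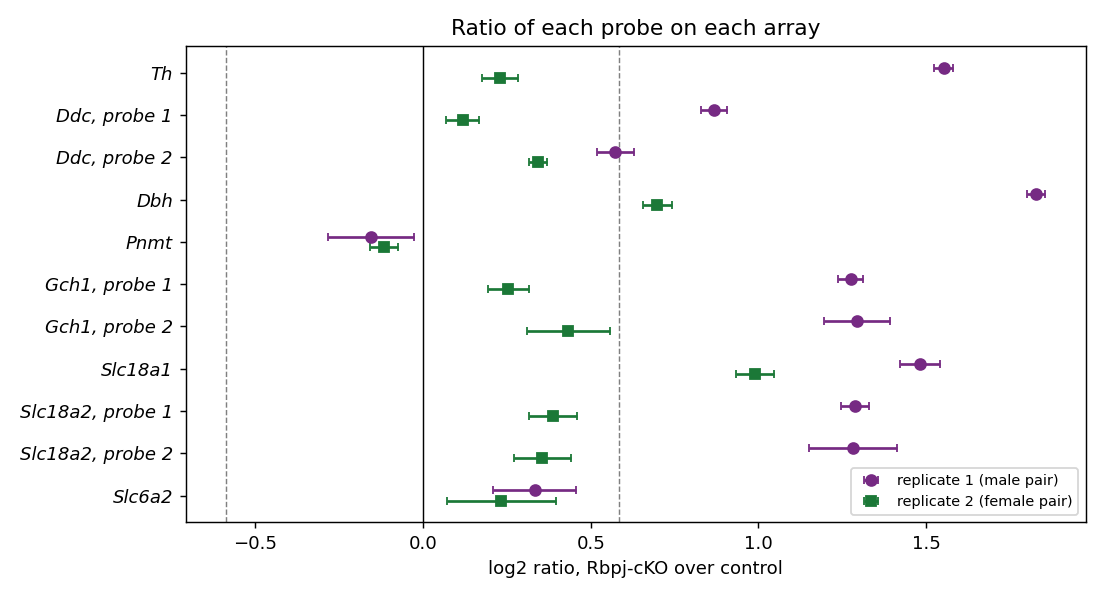
Log2 ratio of Rbpj-cKO over control for all 11 probes on replicate 1 (male pair, circles) and replicate 2 (female pair, squares), with the spot SD as error bars and dashed lines at 1.5-fold. For 10 of 11 probes both arrays lie above 0, with the male pair farther out except for Slc6a2, whose arrays lie within their spot SD; with median centring without loess the brighter Ddc probe was at -0.06 on replicate 2.

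Across the 4 channels the members other than Pnmt shared an order. In processed signals they ran from male Rbpj-cKO through male control and female Rbpj-cKO to female control in 7 of 8 genes, an order that 11.9% of all genes had. The male array was brighter as a whole, since control signals were 1.20-fold higher on it over all genes by the median, and 87.4% of genes were higher in male control. For the 8 genes the male control was 1.62-fold above the female control by the median, from 1.11-fold for Pnmt to 2.35-fold for Slc18a1 among the 7 genes measured in both channels. Slc6a2 is counted in the order and in this median, but its own fold is not given, since its female control level is only a bound. After loess and scaling of the arrays to a common intensity distribution (Aquantile), an alternative chosen after the data were seen, the full order held for 3 genes, Th, Dbh and Slc6a2 (3.42% of all genes). Male Rbpj-cKO stayed the highest channel for 7 of 8 genes on either scale, where 40.8% of all genes had it highest in processed signals and 24.7% after scaling.

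A comparison within one dye sets samples of different sex and genotype against each other. In green, male control exceeded female Rbpj-cKO in 8 of 8 genes, as it did in 91.7% of all genes, and the median excess was 1.16-fold for the 8 genes and 1.16-fold for all genes. In red, male Rbpj-cKO exceeded female control by a median of 4.48-fold for the 8 genes and 1.16-fold for all genes. The median of the 8 includes Slc6a2, whose female control level is only a bound. In processed signals both Rbpj-cKO channels were above both control channels for 0 of 8 genes, against 3.82% of all genes. After loess and Aquantile scaling they were so for 4 of 8, namely Ddc, Gch1, Slc18a1 and Slc18a2, against 10.3% of all genes. The margins of female Rbpj-cKO over male control were small for Slc18a2 (log2 levels of 9.87 and 9.85) and Gch1 (9.74 and 9.69). The spot SD of their female ratios was larger than these margins, at 0.070 and 0.061.

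**Figure D3:**
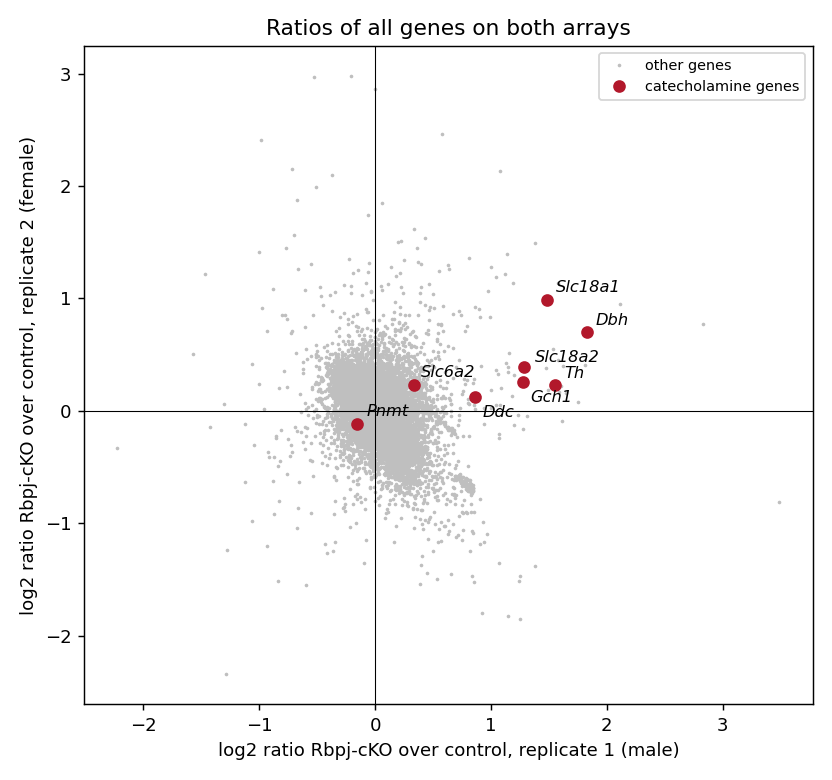
Log2 ratio of Rbpj-cKO over control on replicate 1 (x axis) and replicate 2 (y axis) for 20495 genes (grey) and the 8 catecholamine genes (red). Dbh and Slc18a1 lie in the upper right, Th, Gch1, Slc18a2 and Ddc lie to the right with replicate 2 ratios of at most 0.39, and Slc6a2 and Pnmt lie within the grey cloud.

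Genes with the most similar 4-channel pattern were found by the Euclidean distance between log2 channel levels, each gene centred on its mean over the 4 channels, which share 2 arrays. Th lay nearest to Npy (distance 0.055), the gene of a peptide released with noradrenaline, whose log2 ratios were 1.58 and 0.17. Slc18a1 lay nearest to Resp18 (0.26), an endocrine secretory protein gene, with 1.19 and 1.14. Dbh lay nearest to the secretin receptor gene Sctr (0.21), with 1.81 and 0.41, and Slc18a1 was also among its 5 nearest genes (0.40). Among genes with a plain symbol, Gch1 lay nearest to Slc18a2 (0.1321), but Nap1l5, outside the pathway, was almost as near (0.1328). Slc18a2 lay nearest to Disp2 (0.093), followed by Nap1l5 (0.10) and Slc26a4 (0.10), all nearer than Gch1. Ddc lay nearest to Oasl2 (0.11), Slc6a2 to Cfi (0.13) and Pnmt to Fndc5 (0.019).

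Most other genes of the same chemistry had ratios nearer to 0. Of the 6 other genes of tetrahydrobiopterin synthesis and recycling, 0 were higher on both arrays, 1 was lower on both, and the medians were -0.028 and 0.066. Pcbd1, a recycling enzyme gene, had -0.02 and 0.24, and Qdpr, dihydropteridine reductase, 0.19 and -0.02. Among 4 genes that supply Dbh with electrons or copper, 2 were higher on both arrays. Cyb561, the vesicle cytochrome that passes electrons from ascorbate, had 0.90 and 0.13, a pair of values close to those of Ddc, and the copper importer gene Slc31a1 had 0.20 and 0.12. With limma, no gene of these lists passed, the lowest adjusted p being 1 after rounding.

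Of 5 genes of breakdown, 2 were higher on both arrays, both of them monoamine oxidases, and 0 were lower on both. Maoa had 0.30 and 0.42, and Maob 0.23 and 0.34. Among 5 measured genes of other amine carriers, the organic cation transporter gene Slc22a3 had 0.26 and 0.14, and the acetylcholine carrier gene Slc18a3 -0.72 and 2.15, while the dopamine and serotonin transporter genes Slc6a3 and Slc6a4 did not pass the filter on dim probes. Hdc, which makes histamine, had 0.29 and 0.60, and Tph1, which starts serotonin synthesis, -0.18 and 0.16. Of 8 measured adrenergic receptor genes, 1 was higher on both arrays, 1 was lower on both, and the medians were 0.0068 and 0.00077. Adrb3 had -0.37 and 0.51 and Adrb1 0.02 and -0.13, and Drd4, the 1 measured dopamine receptor gene, had -0.43 and -0.17.

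Transcription factors of noradrenergic cells were higher as well, but more so in the female pair. Of 9 such genes, 5 were higher on both arrays and 1 was lower on both, and the medians of 0.34 and 1.19 ran the other way round from the 1.28 and 0.24 of the catecholamine genes. Insm1, a factor of neuroendocrine cells, had 1.04 and 1.19 (limma adjusted p = 0.28), and Phox2a had 0.64 and 1.26 (limma adjusted p = 0.827). The difference between arrays was not tested, with 1 array per sex.

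Chromaffin cell markers, like the members, had their larger median in the male pair. Of 7 chromaffin cell markers outside the pathway, 6 were higher on both arrays, 1 was lower on both, and the medians were 1.15 and 0.51. Chgb and Chga, granins of the secretory granule, had 2.83 and 0.77, and 2.11 and 0.95, again with the larger ratio in the male pair. Resp18 had 1.19 and 1.14 (limma adjusted p = 0.254, the lowest of the list), and no gene of the list passed. The summed signal of these markers was 43780 and 25783 in male Rbpj-cKO and control and 21970 and 20078 in female Rbpj-cKO and control. Chgb alone supplied 17865, 2454, 2595 and 1523 of these sums, so most of the male difference came from 1 gene. Penk, named after its values were seen, supplied 16508, 18140, 14636 and 14821 of these sums and was not higher in Rbpj-cKO.

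Of 11 sympathetic neuron markers, 5 were higher on both arrays, 0 were lower on both, and the medians were 0.05 and 0.88. Cartpt, a neuropeptide gene, had -0.05 and 1.32, while Npy followed Th. Their summed signal was 5817 and 5386 in the male pair and 6017 and 3452 in the female pair. The 3 cholinergic markers had -0.53 and 0.86 by the median, with sums of 265 and 406 in the male pair and 427 and 124 in the female pair. Of 6 measured Schwann cell markers, 5 were higher on both arrays, with medians of 0.06 and 0.27, led by Fabp7 (0.63 and 0.58) and Sox10 (0.20 and 0.38), and sums of 31366 and 30950, and 28078 and 24383. In the female pair neuronal and cholinergic medians thus exceeded that of the catecholamine genes, and in the male pair they lay below it. The part of these cells in the ratios was not tested.

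**Figure D4:**
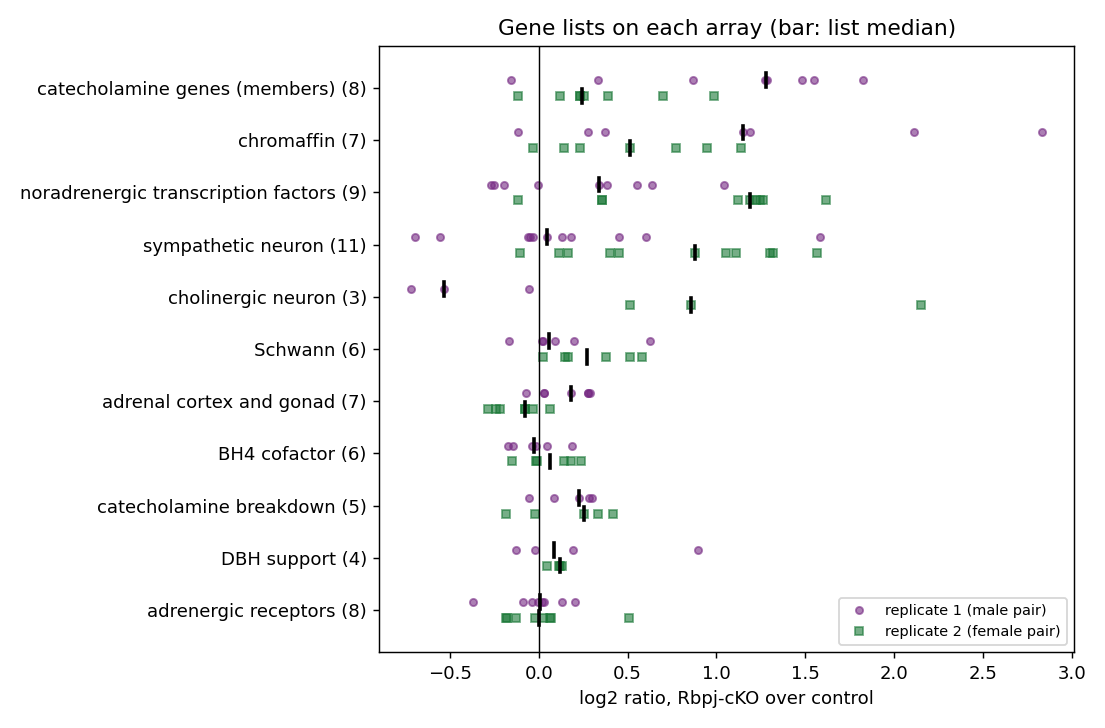
Log2 ratio of Rbpj-cKO over control for the genes of each list on replicate 1 (circles) and replicate 2 (squares), with the list median as a black bar and the number of measured genes in brackets. The catecholamine and chromaffin medians are higher in the male pair, as are those of adrenal cortex and gonad (0.18 and -0.08) and adrenergic receptors (0.0068 and 0.00077). Medians of the other lists, among them noradrenergic transcription factors, sympathetic and cholinergic neurons, are higher in the female pair.

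Genes of steroid-making cells, which surround chromaffin cells in the adrenal gland and also lie in the gonad, had medians nearer to 0 than the catecholamine genes did. Of 7 measured genes, 1 was higher on both arrays, 1 was lower on both, and the medians were 0.18 and -0.08. The male ratio was above the female ratio for all 7, as it was for 49.8% of all genes. Cyp11b1, which makes corticosterone, was well above background on 0 of 4 spots in each channel. Mc2r, the corticotropin receptor gene, gave signals of 18.0 and 11.3 in the male pair and 9.29 and 8.04 in the female pair. Apart from Mc2r, each measured gene of the list was well above background on 4 of 4 spots in all 4 channels. The list's summed signal was 2677 and 2237 in the male pair and 1250 and 1436 in the female pair, most of it from Cyp17a1, named after its values were seen (2378, 1956, 1043 and 1211). Proximal tubule markers, of a kidney cell that also makes dopamine through Ddc, had medians of 0.08 and -0.06 over 4 genes, with Lrp2 at 0.07 and 0.01. Urothelial markers had medians of -0.02 and 0.09 over 7 genes, and markers of ureteric mesenchyme and smooth muscle -0.0067 and -0.17 over 8, including Myocd, the smooth muscle coactivator, at -0.67 and -1.04 (limma adjusted p = 0.651).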

How the data were processed

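RNA of Rbpj-cKO and control ureters was hybridised together on 2-colour Agilent arrays, 1 per sex. The authors deposited, per the file headers, each spot's mean and local background intensity in red and green without normalization, the processed intensity after background subtraction, detrending and dye normalization, the log10 ratio of red over green of the processed intensities, and other values of 0 or 1 that flag spots. Per the submitters' processing notes, spots were read with Agilent Feature Extraction 10.7.3.1, and coordinates are on mm9, per the file headers. The deposited series table holds a score per probe, read as a signed fold change because no value lies between -1 and 1 and because it ran with the processed ratio (r = 0.782 and 0.849 across probes). Its direction was already turned for the dyes, and how it was computed is not stated in these sources.

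Intensities were corrected with normexp (offset 50) and loess (control spots at weight 0) using limma 3.58.1 and R 4.3.3. Outlier spots (3.57% and 3.9%) were left out, no spot was saturated, spots of a probe were averaged, and the ratio was multiplied by -1 on replicate 2. A probe needed 2 of 4 spots well above background in a channel on each array, and the brightest probe stood for a gene. All 11 member probes passed. Genes were named by RefSeq accession for 28328 probes, by symbol for 3400 and by the file's name for 7701. Genes were tested with lmFit and eBayes (two-sided, Benjamini-Hochberg). The code was checked on simulated data with independent noise on the 2 arrays and changes larger than any member's mean ratio. That check does not measure how the test performs on these data. The number of arrays limits the precision. Each p-value tests a gene's mean ratio against 0. Its variance joins the spread between the 2 arrays with that of all genes (residual degrees of freedom 1, prior 5.57). The only replication behind it is the 2 arrays. Within lists, named genes are those with a shared direction and at least 1.5-fold on each array, and the 2 with the largest mean ratio. Upk1b, Upk3a, Ddx3y, Eif2s3y, Cyp11b1, Slc6a3 and Slc6a4 are named in addition, after their values were seen. Some list members are not reported here. For likeness, the nearest genes with a plain symbol are named. Members and lists were chosen with earlier results of these data known. Positions of probes within transcripts were not determined.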

Additional observations from a re-analysis of the deposited data

Results flagged for a closer look

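No member had ratios of opposite sign on the arrays. Opposite signs were common, seen in 14179 of the 20495 genes tested. Among the genes named from the lists, 11 had them, with 1 array per sex and the difference not tested. The log2 ratio on replicate 1 (male) less that on replicate 2 (female) was -2.87 for Slc18a3, -1.37 for Cartpt, -0.88 for Adrb3, -0.57 for Chat, which makes acetylcholine, -0.34 for Tph1 and -0.26 for Pcbd1. It was 0.53 for Cyp17a1, a steroid enzyme gene, 0.41 for Tbx18, 0.20 for Qdpr, 0.14 for Adrb1 and 0.075 for Cubn, a proximal tubule receptor gene.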

How the results depend on the processing

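Of 56 values of single members under the alternatives that keep both arrays, 50 stayed within 1 SD between the arrays and 6 moved, all of Pnmt and Slc6a2, and no member's mean changed sign. That SD was 0.93 for Th but 0.028 for Pnmt and 0.071 for Slc6a2. The count therefore depends on how alike the arrays were for each gene and does not measure robustness to processing. The count of members higher on both arrays was 7, but 6 with median centring without loess, where Ddc had 1.02 and -0.06. It was 7 to 7 on either array alone. The median mean ratio of 0.80 was 0.24 without replicate 1 and 1.28 without replicate 2. The count of members at least 1.5-fold the same way was 2, but 3 with the processed signals, 1 with median centring without loess and 0 at 2-fold. The count in the shared channel order went from 7 to 3 after scaling between arrays, and that with both Rbpj-cKO channels above both controls from 0 to 4. Over all genes, 40 were at least 1.5-fold the same way, 88 with the processed signals, 85 with the authors' deposited series table and 9 at 2-fold. The count passing limma went from 0 to 2 with the processed signals and to 5 with an intensity trend and robust moderation. The cause of these shifts was not tested. Each ratio sets the 2 samples of an array against each other, so the fit is already the paired one and no replicate block was added. Signals near background limit Pnmt and Slc6a2.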
